A study of Homo sapiens with 28 samples.

Results

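Tributyltin chloride (TBTCl) at 0.1 µM was compared with its vehicle, DMSO, in HepG2, an established human liver cancer line with many hepatocyte traits. The comparison rests on 4 TBTCl and 4 DMSO libraries of messenger RNA out of 28 libraries in the series, taken by their labels, and on all 63139 genes kept from the count table. Before exposure, which lasted 24 h, the cells of every group spent 24 h in medium free of serum. In DMSO and the groups dissolved in it, TBTCl among them, DMSO was at no more than 0.1% of the medium, and per the labels' protocols 4 independent experiments were made. The other groups, used here only for reference, were water, CdCl2 at 0.5 µM, TCDD at 100 nM, PFOS at 10 µM and BPA at 75 µM, with 4 libraries each. The labels of TCDD and PFOS are those after an exchange that the submitters recorded, and CYP1A1, which dioxins induce, was at 4610 CPM in the libraries labelled TCDD and 7.51 CPM in those labelled PFOS. The title of the series asks about a network of imprinted genes in fatty liver disease. HepG2 is a single tumour line, so the replicates are cultures of 1 genotype and not donors. Calls, fold changes and list medians are given with all 4 TBTCl libraries and without TBTCl replicate 4, which stood apart from the other libraries.

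Tributyltin is an organotin, a tin compound once used widely in antifouling paint. It is known to bind the retinoid X receptors (RXR) and PPARγ, nuclear receptors that switch genes on when a ligand is bound. RXR pairs with many other receptors, among them the liver X receptors (LXR), which sense oxysterols and drive cholesterol efflux and lipogenic genes, the PPARs, which drive fatty acid oxidation and storage, and FXR, the bile acid receptor. A ligand of RXR can switch on some of these pairs without the partner's own ligand, so target genes of the partners were followed in lists. Targets of LXR, the PPARs and the retinoic acid receptors had separate lists. Vitamin D, thyroid, FXR and PXR targets were pooled in 1 list.

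Total counts ran from 32.8 M to 40.6 M in TBTCl and from 31.4 M to 66 M in DMSO. Levels are CPM, a gene's share of the TMM-scaled library, and 3 counts in a library corresponded to 0.0454 to 0.0955 CPM over these 8 libraries, which covers counting error only. Markers of the labelled cell type were high in both groups. The 12 hepatocyte markers summed to between 45300 and 71900 CPM in TBTCl and between 39500 and 72500 CPM in DMSO. Endothelial markers summed to 4.87 to 8.04 CPM in TBTCl and 6.29 to 7.43 CPM in DMSO. Biliary markers were not low, at 745 to 1190 CPM in TBTCl and 806 to 954 CPM in DMSO. Stromal markers summed to 49.3 to 56.2 CPM and 52 to 58.7 CPM. Of 5 leukocyte markers, PTPRC, CD68 and CD3E were too low to be tested, while LYZ was high in both groups (2360 ± 892 CPM in TBTCl and 2140 ± 245 CPM in DMSO, SD, n = 4). Of the tested leukocyte (2), endothelial (3), biliary (3) and stromal (4) markers none passed with all libraries, without replicate 4 or with the block. In bulk RNA, fewer cells of a kind and less RNA per cell cannot be told apart.

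TBTCl replicate 4 differed from the other libraries by transcript length. In the shortest of 10 length classes of genes, with a median transcript of 491 bases, its median log2 level lay 0.46 above the DMSO mean. In the longest class, with a median of 8171 bases, it lay at -0.66. The other 7 libraries stayed between -0.18 and 0.09 in all 10 classes. Cytosolic ribosomal protein genes, which are short, took 10.9% of the counts of replicate 4, against 5.11% to 6.83% in TBTCl replicates 1 to 3 and 5.42% to 5.72% in DMSO. Its TMM factor of 0.861 was the lowest of the series, where the range was 0.861 to 1.07. On the first principal component of the 8 libraries, which held 44.7% of the variance, replicate 4 lay at 107 and the others between -33.1 and 8.81. What set this library apart was not tested.

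**Figure D1:**
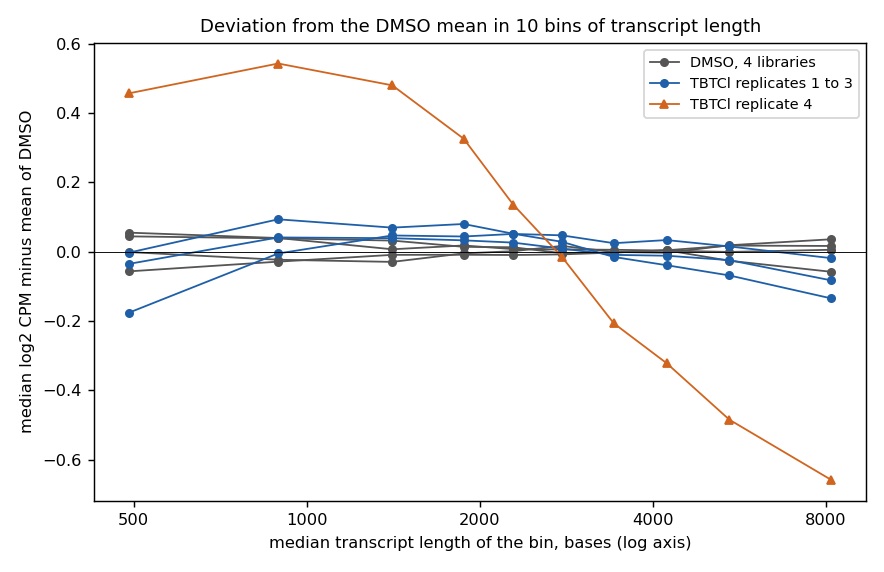
Median difference of log2 CPM from the DMSO mean (y axis) in 10 classes of genes by transcript length (x axis, log scale), 1 line for each TBTCl and DMSO library. The line of TBTCl replicate 4 runs from 0.46 in the shortest class to -0.66 in the longest, while the other 7 lines stay between -0.18 and 0.09.

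In the fit without a block, few genes passed the test, and the protein-coding genes among them all rose. They held genes of fatty acid oxidation (CPT1A), LXR targets (SREBF1, LPCAT3, ABCG1, APOC1), bile acid genes (SLC51B, NR0B2) and apolipoproteins. Of 18849 genes tested with edgeR, 27 passed an adjusted p of 0.05 (0.143%), of which 20 rose (0.106%) and 7 fell (0.0371%), while 2937 had an unadjusted p under 0.05. All 20 that rose were protein-coding, and none of the 7 that fell was. In each of the 27 the 4 TBTCl and 4 DMSO libraries did not overlap, as in 4.87% of all tested genes. Without TBTCl replicate 4, 9 of 19175 genes passed (0.0469%), all higher in TBTCl, and 8 of them were among the 27. The ninth was ACSL1. All 27 kept their sign in that fit. The lack of overlap without replicate 4 follows from the lack of overlap with it, so it adds no support.

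Each TBTCl library correlated best with the DMSO library of its replicate number, and a fit with the number as a block called more genes. The block covered all 28 libraries, and pairing by number was checked for TBTCl and DMSO only. With the block 102 genes rose (0.541%) and 77 fell (0.409%), including all 27, and 13 of those that fell were protein-coding. With the block and without replicate 4, 47 rose (0.245%) and 37 fell (0.193%), including all 20 of the risen genes and 6 of the 7 fallen ones, and 3 that fell were protein-coding. Replicate 4 had the highest level of the 4 TBTCl libraries in 14 of the 20 risen genes and the lowest in 7 of the 7 fallen ones. The log2 change was smaller without it in 15 of the 20 and in all 7, but the fold moved by more than 1.5 times in 3 genes, GAST, SLC51B and APOC1. With scaling done within classes of transcript length, an alternative chosen after seeing the data, 15 of the 20 and 3 of the 7 passed. Leaving out DMSO replicate 1, 2, 3 or 4 left 7, 6, 5 and 6 genes in all, and leaving out TBTCl replicate 1, 2 or 3 gave 55, 160 and 35.

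**Figure D2:**
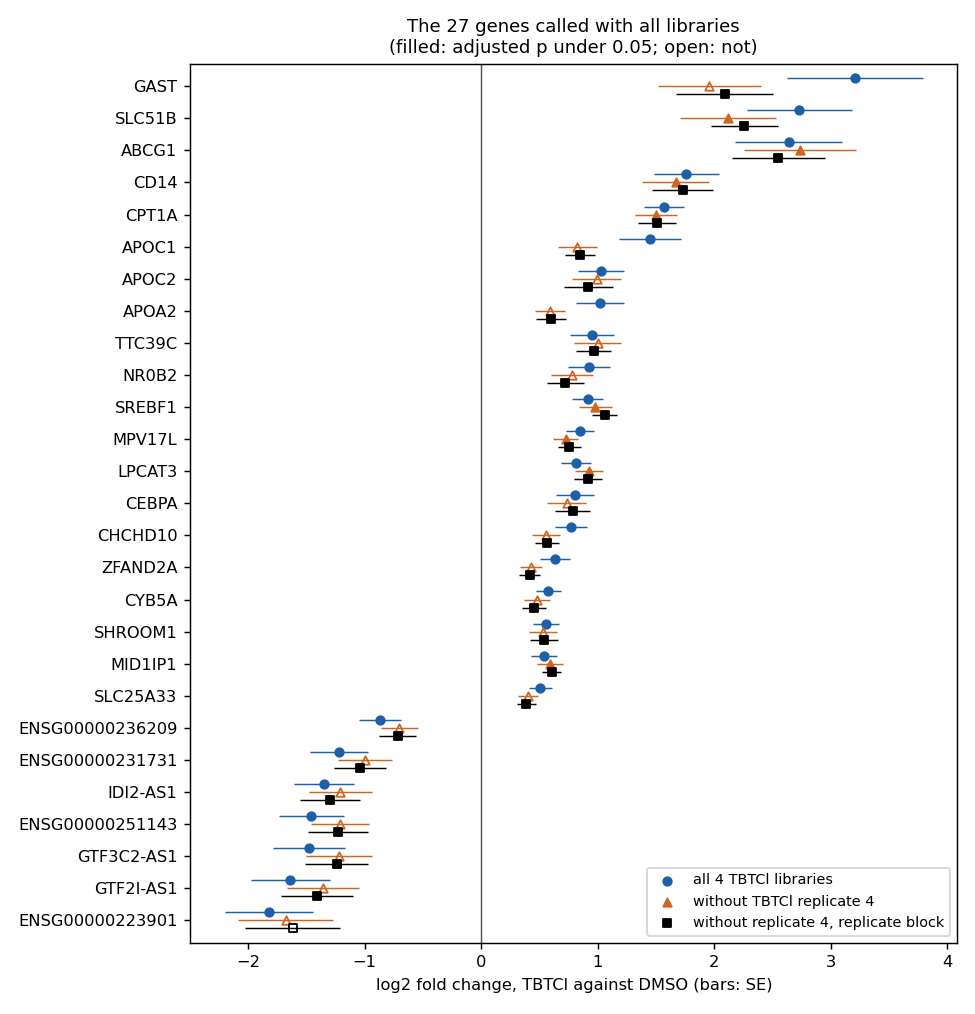
Log2 fold change of TBTCl against DMSO with its SE (x axis) for the 27 genes called with all libraries (y axis), from the fit with all 4 TBTCl libraries (circles), without replicate 4 (triangles) and without replicate 4 with the replicate block (squares). Filled marks passed an adjusted p of 0.05 and open marks did not, and each gene keeps its side of 0 in the 3 fits.

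CPT1A, the carnitine palmitoyltransferase that lets long-chain fatty acids into mitochondria and a classic PPARα target, had the smallest p. Its gene lies at chr11:68754620-68844410 on the minus strand (GRCh38). Its levels in TBTCl replicates 1 to 4 were 75.9, 79.0, 91.5 and 98.6 CPM, and in DMSO 27.8, 29.3, 30.7 and 28.5 CPM. The lowest TBTCl library lay above the highest DMSO library by more than the whole range of either group. The rise was 2.96-fold (log2 1.57 ± 0.17, SE, adjusted p = 2.29e-05 in edgeR), and 2.82-fold without replicate 4 (adjusted p = 0.000191). CPT1A passed with all libraries and in each of 8 fits that left out 1 TBTCl or DMSO library. So did SREBF1, LPCAT3, MPV17L and CD14, making 5 genes in all. These fits took their spread from the other groups too. A fit of the 8 TBTCl and DMSO libraries alone called 1 gene.

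CPT1A was the only member of 22 tested PPAR targets that rose with all libraries, and the median log2 change of the list was 0.17 (0.21 without replicate 4), against 0.01 over all genes (0.00 without it). ACSL1, which activates long-chain fatty acids, passed only without replicate 4. Its levels were 112, 154, 92.1 and 49.5 CPM in TBTCl and 61.1, 76.4, 62.7 and 70.0 CPM in DMSO, so that replicates 1 to 3 lay above every DMSO library and replicate 4 below them all. The log2 change was 0.59 ± 0.20 with replicate 4 (adjusted p = 0.178) and 0.82 ± 0.16 without it (adjusted p = 0.0493). PLIN2, which coats lipid droplets, stood at 643, 529, 907 and 1320 CPM in TBTCl and 421, 363, 438 and 520 CPM in DMSO. The groups did not overlap, yet the adjusted p was 0.124 with all libraries, 0.0392 with the block and 0.144 with the block and without replicate 4. ACADVL, the first enzyme of long-chain β-oxidation in mitochondria, passed with the block (adjusted p = 0.0242) but not without replicate 4 (0.0814). SLC25A20, the carnitine carrier that works next to CPT1A, was 22.5 ± 6.17 CPM in DMSO and 37.0 ± 10.7 CPM in TBTCl and did not pass (adjusted p = 0.165, and 0.311 without replicate 4). FABP1 and ANGPTL4 did not pass in the main or blocked fits, and PDK4 was at 0.049 to 0.128 CPM in TBTCl and too low to be tested.

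LXR targets held the most genes that rose of any list. Of 15 tested, 4 rose with all libraries, 3 passed without replicate 4, 6 with the block and 5 with both changes. In these fits 0.106%, 0.0469%, 0.541% and 0.245% of all genes rose. The list was chosen with earlier results of these data known. The median log2 change was 0.39, or 0.49 without replicate 4, and in 6 of the 15 the groups did not overlap, as in 4.87% of all tested genes. SREBF1, at chr17:17810399-17837002 on the minus strand, encodes the transcription factor of fatty acid synthesis. It stood at 312, 322, 238 and 239 CPM in TBTCl and 127, 135, 145 and 184 CPM in DMSO. Replicates 1 and 2 were the highest, and the lowest TBTCl library was still above all DMSO libraries. The rise was 1.88-fold (log2 0.91 ± 0.13, adjusted p = 0.00194) and 1.97-fold without replicate 4 (adjusted p = 0.00125).

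LPCAT3, an acyltransferase that puts polyunsaturated chains into phospholipids, lies at chr12:6976186-7018510. It stood at 159, 196, 133 and 115 CPM in TBTCl against 77.3, 94.1, 87.2 and 84.1 CPM in DMSO. Here replicate 4 was the lowest of the TBTCl libraries, and leaving it out raised the change from 1.76-fold to 1.90-fold (adjusted p = 0.00332 and 0.000317). ABCG1, a sterol efflux transporter at chr21:42199689-42297244, was scarce in DMSO at 0.274, 0.191, 0.0742 and 0.0869 CPM, which is close to the level of 3 counts. In TBTCl it stood at 1.03, 1.39, 0.544 and 0.731 CPM, above all DMSO libraries. The fitted rise was 6.22-fold (log2 2.64 ± 0.46, adjusted p = 0.0134), and 6.66-fold without replicate 4 (adjusted p = 0.0194).

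The remaining LXR targets were mixed. NR1H3, the LXRα gene and itself an LXR target, was 42.2 ± 9.01 CPM in TBTCl and 25.7 ± 1.60 CPM in DMSO. It just missed the threshold with all libraries (adjusted p = 0.0512), passed with the block (0.0233) and did not pass with the block and without replicate 4 (0.0897). ABCA1, the efflux transporter most often used as an LXR readout, did not pass. Its levels were 171, 162, 123 and 41.6 CPM in TBTCl and 141, 193, 165 and 126 CPM in DMSO. Replicate 4 was far below the rest for this gene, whose main transcript is 10494 bases long, and the log2 change was -0.33 ± 0.28 with it and -0.04 ± 0.21 without it. MYLIP, which marks the LDL receptor for degradation, was 4.35 ± 0.530 CPM in TBTCl and 5.49 ± 0.438 CPM in DMSO (adjusted p = 0.283). SCD and FASN, enzymes of fatty acid synthesis, had log2 changes of 0.29 and 0.39 and adjusted p of 0.426 and 0.431. ABCG5, ABCG8 and PLTP did not pass either. Without replicate 4 the adjusted p was 0.22 for NR1H3, 0.9 for MYLIP, 0.868 for SCD and 0.483 for FASN.

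**Figure D3:**
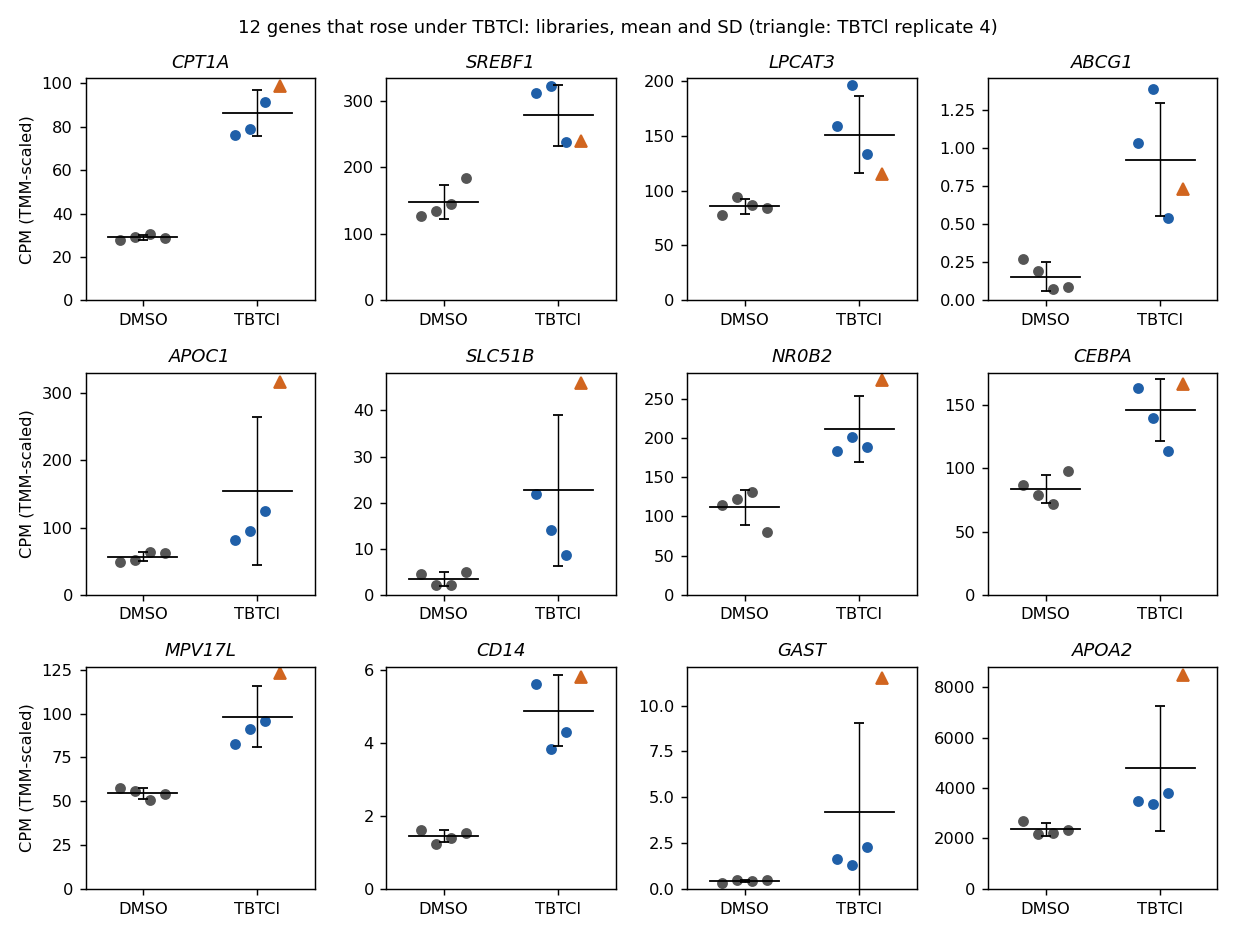
CPM (y axis, linear, each from 0) of 12 genes that rose, in each DMSO library (grey), TBTCl replicates 1 to 3 (blue) and TBTCl replicate 4 (orange triangle), with the mean and SD of 4, the lower bar of GAST ending at the axis. TBTCl libraries lie above DMSO libraries in every panel, and replicate 4 is the highest in APOC1 (317 CPM), APOA2 (8480 CPM), GAST (11.5 CPM) and SLC51B (46.0 CPM).

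In the list of vitamin D, thyroid, FXR and PXR targets, 2 of 10 tested genes rose with all libraries. Without replicate 4, 1 passed, and with the block 3 passed, with or without replicate 4. Over all genes 0.106% rose with all libraries, 0.0469% without replicate 4, 0.541% with the block and 0.245% with both changes. This list too was chosen with earlier results of these data known. The median log2 change was 0.87 and without replicate 4 it was 0.84, against 0.01 and 0.00 over all genes. Both genes that rose belong to bile acid handling. SLC51B, at chr15:65045370-65053396, encodes the β chain of the transporter that carries bile acids out across the basolateral membrane. Its levels were 21.8, 14.1, 8.61 and 46.0 CPM in TBTCl and 4.54, 2.13, 2.08 and 4.94 CPM in DMSO. Replicates 1 and 4 were the highest in both groups. The rise was 6.63-fold (log2 2.73 ± 0.45, adjusted p = 0.00603) and 4.35-fold without replicate 4 (adjusted p = 0.0493). SLC51A, its partner chain, was 17.7 ± 13.9 CPM in TBTCl and 8.40 ± 2.26 CPM in DMSO and did not pass (adjusted p = 0.331, and 0.988 without replicate 4).

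NR0B2, which encodes SHP, the repressor that shuts down bile acid synthesis, lies at chr1:26911489-26913966. It stood at 183, 202, 189 and 274 CPM in TBTCl and 114, 122, 131 and 79.8 CPM in DMSO, with replicate 4 the highest in TBTCl and the lowest in DMSO. The rise was 1.90-fold (log2 0.92 ± 0.18, adjusted p = 0.0347). Without replicate 4 it was 1.72-fold and did not pass (0.154), but it passed with the block and without replicate 4 (0.0477). CYP24A1, the vitamin D hydroxylase, spread widely, from 2.40 to 13.5 CPM in TBTCl and from 0.816 to 3.99 CPM in DMSO. It passed only with the block (adjusted p = 0.0319, and 0.0415 without replicate 4). NR1H4, the gene of FXR itself, was 34.3 ± 3.55 CPM in TBTCl and 21.5 ± 3.37 CPM in DMSO, with no overlap between groups and an adjusted p of 0.130 (0.343 without replicate 4).

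**Figure D4:**
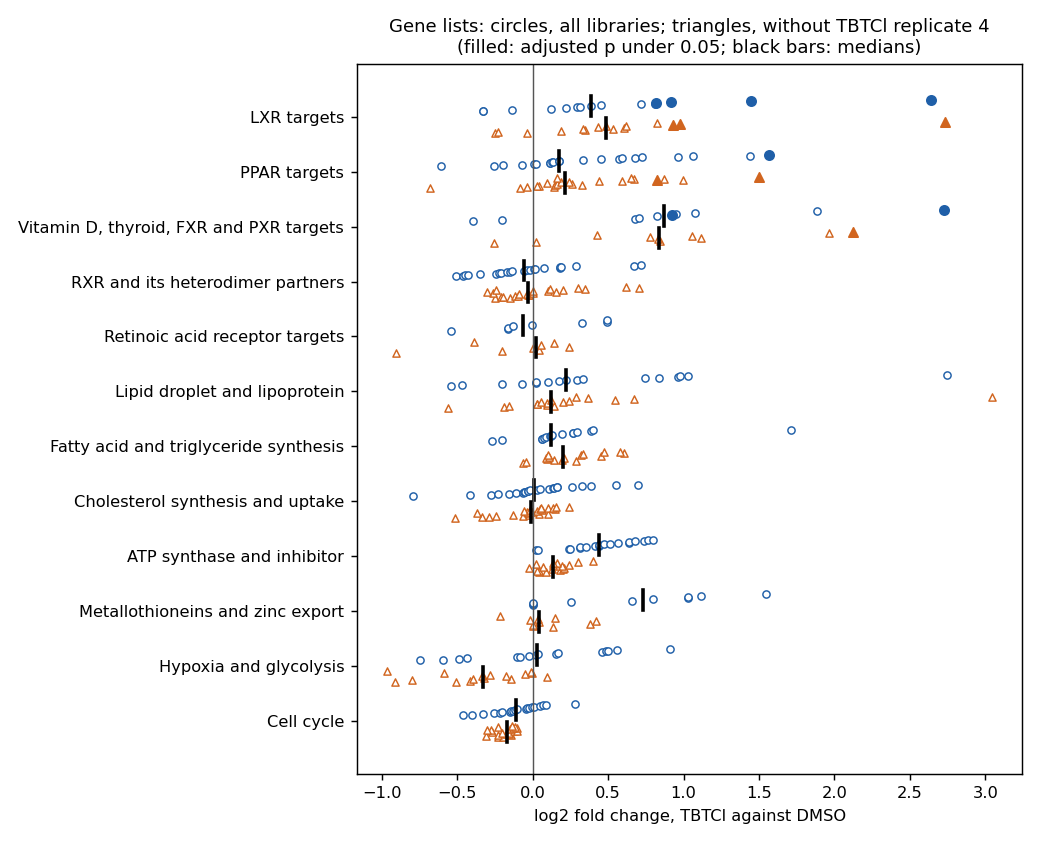
Log2 fold change of TBTCl against DMSO (x axis) for the tested members of 12 gene lists (y axis), with all libraries (circles) and without TBTCl replicate 4 (triangles). Filled marks passed an adjusted p of 0.05 and black bars are medians. Filled marks occur in the LXR, PPAR and vitamin D, thyroid, FXR and PXR lists, and the medians of the ATP synthase and metallothionein lists move from 0.44 to 0.14 and from 0.73 to 0.04 without replicate 4.

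A group of 12 tested genes with apolipoprotein symbols was put together after their values were seen. Of these, APOA2, APOC1 and APOC2 rose with all libraries and 0 passed without replicate 4. Over all genes 0.106% rose with all libraries and 0.0469% passed without replicate 4. Apolipoproteins form and direct lipoprotein particles. The other 9 had log2 changes from -0.47 (APOB) to 1.03 (APOC3) and adjusted p from 0.0528 (APOE) to 0.929 (APOF). APOC1 stood at 81.1, 95.3, 124 and 317 CPM in TBTCl and 49.3, 51.7, 63.2 and 61.9 CPM in DMSO. APOA2 stood at 3470, 3350, 3810 and 8480 CPM in TBTCl and 2700, 2190, 2200 and 2330 CPM in DMSO. In both, replicate 4 was more than 2 times as high as any other TBTCl or DMSO library, and both have short transcripts of 689 and 474 bases. The rise of APOC1 was 2.73-fold with replicate 4 and 1.77-fold without it (adjusted p = 0.0279 and 0.091). That of APOA2 was 2.03-fold and 1.51-fold (adjusted p = 0.041 and 0.124). APOC2, the cofactor of lipoprotein lipase, did not share this pattern. Its levels of 2.18, 2.20, 2.40 and 2.51 CPM in TBTCl and 1.13, 1.05, 1.32 and 1.06 CPM in DMSO gave 2.04-fold with replicate 4 (adjusted p = 0.0347) and 1.99-fold without it (adjusted p = 0.115).

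APOC1 and APOC2 lie with APOE in 43.8 kb of chromosome 19, from chr19:44905754 to chr19:44949565. APOE, the ligand by which remnants enter liver cells, stood at 2950, 3160, 2860 and 5990 CPM in TBTCl and 1930, 2390, 2360 and 1860 CPM in DMSO. It missed the threshold with all libraries (adjusted p = 0.0528), passed with the block (0.0222), and passed with the block and without replicate 4 (0.0477). Of 8 genes tested in this stretch and 50 kb on each side, 2 rose with all libraries and 3 with the block. Over all genes 0.106% rose with all libraries and 0.541% with the block. The flanking genes TOMM40, NECTIN2 and CLPTM1 had log2 changes of 0.27, 0.24 and 0.04 and adjusted p of 0.411, 0.379 and 0.91. Reads of APOC1 may be shared with its pseudogene copy nearby, and reads of APOC2 with the APOC4-APOC2 readthrough, depending on how the authors' counting treated them. The stretch was chosen after the values of its genes were seen.

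The other risen genes came from several roles. MPV17L, a small membrane protein related to MPV17, stood at 82.7, 91.2, 95.7 and 123 CPM in TBTCl and 57.4, 55.9, 50.5 and 53.9 CPM in DMSO, a rise of 1.80-fold (adjusted p = 0.00138) and of 1.65-fold without replicate 4 (adjusted p = 0.00266). CD14, the co-receptor for bacterial lipopolysaccharide, stood at 5.62, 3.83, 4.32 and 5.81 CPM against 1.61, 1.24, 1.39 and 1.54 CPM, a rise of 3.39-fold (adjusted p = 0.00332) and 3.18-fold without replicate 4 (adjusted p = 0.0194). Both kept their call without that library. MID1IP1, a partner of acetyl-CoA carboxylase in fatty acid synthesis, was 158 ± 12.2 CPM in TBTCl and 109 ± 14.6 CPM in DMSO (1.46-fold, adjusted p = 0.0421), and 1.51-fold without replicate 4 (adjusted p = 0.0493).

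CEBPA, a transcription factor of hepatocyte differentiation, stood at 164, 140, 114 and 167 CPM in TBTCl and 86.7, 78.8, 71.5 and 97.8 CPM in DMSO. It rose 1.75-fold (adjusted p = 0.0402), lost the call without replicate 4 (1.66-fold, 0.144), and passed with the block and without replicate 4 (0.0163). It was the only one of 12 hepatocyte markers that rose. Of the 12, 9 had positive log2 changes (8 without replicate 4), and in 4 the TBTCl libraries lay above all DMSO libraries, as in 426 of all 18849 tested genes. The changes ran from -0.47 in APOB (adjusted p = 0.433) to 0.85 in FGB, a fibrinogen chain (adjusted p = 0.116), and from -0.19 to 0.75 in these genes without replicate 4. GAST, which encodes gastrin, had the largest fold change, but much of its size rested on replicate 4. Its levels were 1.64, 1.28, 2.27 and 11.5 CPM in TBTCl and 0.335, 0.493, 0.445 and 0.478 CPM in DMSO, 9.26-fold with replicate 4 (adjusted p = 0.0178) and 3.88-fold without it (adjusted p = 0.124). Replicates 1 to 3 also lay above all DMSO libraries, and GAST passed with the block and without replicate 4 (0.0272).

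The remaining risen genes were TTC39C, CHCHD10, ZFAND2A, CYB5A, SHROOM1 and SLC25A33. Their folds ran from 1.42 in SLC25A33, a mitochondrial pyrimidine nucleotide carrier, to 1.93 in TTC39C. None of the 6 passed without replicate 4, where their adjusted p ran from 0.0543 (TTC39C) to 0.124, and all passed with the block and without replicate 4. TTC39C was high in replicate 2 of both groups, at 85.6 CPM in TBTCl and 46.1 CPM in DMSO. CYB5A, the cytochrome b5 that donates electrons to desaturases, was 132 ± 19.8 CPM in TBTCl and 88.4 ± 8.13 CPM in DMSO. CHCHD10, a protein of mitochondrial cristae, was 63.3 ± 18.0 CPM and 37.1 ± 1.83 CPM.

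Promoter sequence was set beside these values for 3 of the risen genes, because their products stand for the lipogenic, bile acid and apolipoprotein genes above. Sequences are from RefSeq (GRCh38.p14) and run 5′ to 3′ along the transcript, from base 250 to base 21 before the start. Capitals mark matches to the nuclear receptor half-site, searched on both strands as AGGTCA and as its variants GGGTCA and also AGTTCA and also GGTTCA. The windows are chr17:17837007-17837236 on the minus strand for SREBF1, chr15:65045137-65045366 on the plus strand for SLC51B and chr1:161223649-161223878 on the minus strand for APOA2.
SREBF1: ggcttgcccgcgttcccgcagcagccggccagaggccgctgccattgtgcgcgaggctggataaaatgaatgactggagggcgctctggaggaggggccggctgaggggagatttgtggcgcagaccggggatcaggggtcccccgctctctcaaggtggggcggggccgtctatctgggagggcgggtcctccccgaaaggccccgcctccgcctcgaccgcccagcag
SLC51B: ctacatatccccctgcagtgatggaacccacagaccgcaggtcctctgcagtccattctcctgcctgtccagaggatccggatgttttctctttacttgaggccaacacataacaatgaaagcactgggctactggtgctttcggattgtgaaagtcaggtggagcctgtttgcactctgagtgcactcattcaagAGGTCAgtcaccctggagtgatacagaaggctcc
APOA2: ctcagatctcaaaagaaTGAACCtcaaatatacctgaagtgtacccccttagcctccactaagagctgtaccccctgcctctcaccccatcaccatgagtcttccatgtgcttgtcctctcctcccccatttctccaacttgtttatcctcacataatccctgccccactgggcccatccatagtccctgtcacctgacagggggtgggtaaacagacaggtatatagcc

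SLC51B and APOA2 each held 1 half-site in this window, and SREBF1 held none. Of the 20 risen genes, 17 were matched to 18 promoters, and 7 of these held at least 1 half-site, which is 38.9%. The same letters stood in 31.8% of all 35116 promoters of this length, so a half-site was common everywhere. Direct repeats, that is, a half-site followed by another after 1 base (DR1, the element of RXR with PPAR) or after 4 bases (DR4, the element of RXR with LXR), stood in 0.0797% and 0.0712% of all promoters and in 0 of the 18. The search covered these exact letters in a short window only. For SREBF1 this window lay just before the outermost 5′ end of the gene, and any start inside the gene was not searched.

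The 7 genes that fell were all noncoding and scarce, from 0.601 to 3.08 CPM in DMSO and from 0.168 to 1.20 CPM in TBTCl. By GENCODE type 5 were antisense transcripts, and the others were a long intergenic RNA and a processed transcript. IDI2-AS1, at chr10:1022666-1044201, stood at 1.01, 1.52, 1.44 and 0.835 CPM in TBTCl and 3.78, 3.55, 2.36 and 2.62 CPM in DMSO. Its log2 change was -1.35 ± 0.26 (adjusted p = 0.0333), and -1.21 ± 0.27 without replicate 4 (adjusted p = 0.124). GTF2I-AS1 was at 0.956, 1.68, 0.864 and 0.278 CPM against 3.29, 3.29, 2.52 and 2.91 CPM, a log2 change of -1.64 ± 0.34 (adjusted p = 0.0421), and of -1.36 ± 0.31 without replicate 4. In both genes the groups did not overlap, and replicate 4 was the lowest TBTCl library. None of the 7 passed without replicate 4, where the adjusted p ran from 0.106 to 0.2, and 6 of 7 passed with the block and without it.

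The genes on the opposite strand of these transcripts did not pass the test. IDI1, an enzyme of isoprenoid synthesis that overlaps IDI2-AS1, was 254 ± 63.6 CPM in TBTCl and 226 ± 9.32 CPM in DMSO (adjusted p = 0.655). GTF2I, GTF3C2, NUMA1, IWS1 and LSS, which overlap other fallen transcripts, had adjusted p between 0.217 and 0.892. LINC01291, which overlaps ENSG00000236209, had a log2 change of -0.89 ± 0.35 (adjusted p = 0.225), close to the -0.87 of that fallen transcript. How the counting treated strand is not known here, so reads of an antisense transcript and of its partner may have been mixed. The DMSO group was also high for these genes. Its mean exceeded that of water in 6 of the 7 and that of PFOS and of BPA in 7 of 7, and IDI2-AS1 was at 1.49 ± 0.460 CPM in water and 0.983 ± 0.134 CPM in PFOS. Against water 1 of the 7, ENSG00000236209, was lower in TBTCl, a comparison in which 0.00531% of all genes were lower, and without replicate 4 it was 0 of 7 (0% of all genes). Against PFOS none differed, with or without replicate 4, comparisons in which 0% of all genes were lower in TBTCl. Compared with TCDD, 6 of the 7 were lower in TBTCl, where 7.26% of all genes were. Without replicate 4 it was 4 of 7 (6.76%). For BPA 1 was lower and 1 higher, where 16.7% and 18.1% of all genes were. Leaving out replicate 4 gave 0 and 1 (15.6% and 14.3%). Antisense genes together took 0.303% to 0.398% of counts in TBTCl, 0.386% to 0.423% in DMSO and 0.324% to 0.406% in water.

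**Figure D5:**
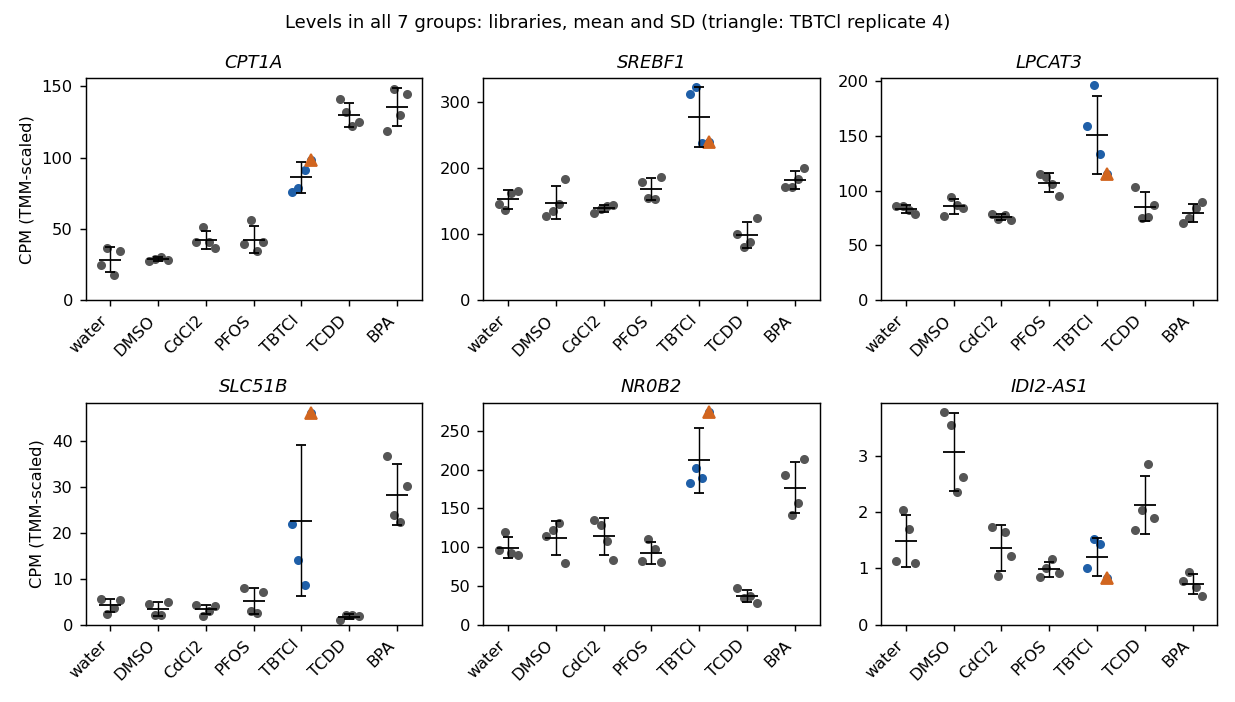
CPM (y axis, linear, from 0) of 6 genes in every library of the 7 groups (x axis) with mean and SD of 4, TBTCl replicates 1 to 3 in blue and replicate 4 as an orange triangle. SREBF1 and LPCAT3 have their highest means in TBTCl, CPT1A is higher in TCDD (130 CPM) and BPA (136 CPM), and IDI2-AS1 has its highest mean in DMSO (3.08 CPM).

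The rise of these genes was set against the other groups, where each comparison of TBTCl shares its libraries. None of the 20 risen genes differed between DMSO and water. How many of all genes differed there is not given here, so this is not read as particular to the 20. Against water 11 of the 20 were higher in TBTCl, a comparison in which 0.0637% of all genes were higher, but without replicate 4 it was 5 of 20, where 0.0261% were. Against PFOS 12 of 20 were higher both with replicate 4 (0.249% of all genes) and without it (0.136%). Against TCDD 15 of 20 were higher and 2 lower, where 5.58% and 7.26% of all genes were, and without replicate 4 it was 15 and 3 (4.86% and 6.76%). Against BPA 7 were higher and 5 lower, where 18.1% and 16.7% of all genes were, and without replicate 4 it was 6 and 5 (14.3% and 15.6%). Compared with DMSO, 14 of the 20 were also higher in BPA and 2 lower, 3 higher and 6 lower in TCDD, and 0 differed in PFOS. Of the 7 fallen ones, 6 were lower in BPA, 1 lower in PFOS and 1 higher in TCDD. These comparisons share the DMSO libraries, and their shares over all genes are not given here. MPV17L, SREBF1, ABCG1, GAST and TTC39C were higher in TBTCl than in PFOS, TCDD and BPA alike, and these 5 and LPCAT3 were so without replicate 4. For GAST the adjusted p without that library was 0.0404 against PFOS and 0.73 against water. CPT1A was lower in TBTCl (86.2 ± 10.6 CPM) than in TCDD (130 ± 8.28 CPM, adjusted p = 0.0175) and BPA (136 ± 13.4 CPM, adjusted p = 0.00381), and also without replicate 4 (0.0174 and 0.00386). NR0B2 was 36.7 ± 7.99 CPM in TCDD, far below TBTCl (adjusted p = 4.24e-10), and 177 ± 32.9 CPM in BPA, which did not differ from TBTCl beyond the spread (adjusted p = 0.271, and 0.669 without replicate 4). Doses differed between compounds, so these values do not rank potency.

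The receptors through which tributyltin is known to act did not themselves pass. Of 23 tested genes for RXR, its partners and their cofactors, 0 rose or fell in edgeR with all libraries or without replicate 4 (median log2 change -0.06 and -0.03), and only NR1H3 passed with the block. RXRA, the main hepatic RXR, stood at 119, 103, 100 and 89.9 CPM in TBTCl and 95.9, 100, 120 and 114 CPM in DMSO (log2 change -0.06 ± 0.13, adjusted p = 0.869, and 0.00 ± 0.14 without replicate 4). PPARG was 25.6 ± 10.4 CPM in TBTCl and 28.1 ± 6.33 CPM in DMSO (adjusted p = 0.848, and 0.988 without replicate 4). The groups overlapped for both. Of 8 tested targets of the retinoic acid receptors none passed with all libraries or without replicate 4 (medians -0.07 and 0.02), and CYP26A1 and RARB, their best-known targets, were too low to be tested.

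Other lipid lists moved little. Of 16 tested genes of fatty acid and triglyceride synthesis none passed with all libraries, and AGPAT2 passed with the block only (adjusted p = 0.0474, and 0.281 without replicate 4), having 80.3 CPM in replicate 4 and 8.86 to 20.0 CPM in the other TBTCl libraries. None of 24 genes of cholesterol synthesis and uptake passed in any of these 4 fits (median log2 change 0.00 with all libraries, -0.01 without replicate 4). Of 17 tested lipid droplet and lipoprotein genes none passed with all libraries or without replicate 4 (median log2 change 0.22 and 0.12).

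Several lists had medians that rested on replicate 4. The 19 genes of ATP synthase, the enzyme that tributyltin is also known to inhibit, had a median log2 change of 0.44 with all libraries and 0.14 without replicate 4, and none passed in either fit. ATP5F1D, a subunit of its central stalk, passed with the block (adjusted p = 0.0305, and 0.0732 without replicate 4). Of the 19, 14 have transcripts shorter than the median of 2520 bases over all tested genes. The 10 tested genes for metallothioneins and zinc export had medians of 0.73 and 0.04. MT2A, a metal-binding protein, was at 143 CPM in replicate 4 and 31.0, 20.0 and 35.5 CPM in replicates 1 to 3, and the latter 3 lay within the DMSO range of 17.0 to 38.7 CPM. For 16 genes of hypoxia and glycolysis the medians were 0.03 and -0.33. CA9, a hypoxia marker, stood at 6.01, 3.15, 23.5 and 127 CPM in TBTCl and 7.77, 6.85, 15.1 and 54.4 CPM in DMSO, highest in replicate 4 of both groups. MT-ND4L, a mitochondrial gene of complex I, was at 97.1 CPM in replicate 4 and 705 to 971 CPM in replicates 1 to 3.

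Stress, hormone and growth lists gave no gene that passed with all libraries or without replicate 4, and some medians moved between these fits. This held for the integrated and mitochondrial stress response (20 genes, median log2 change 0.14 with all libraries and 0.03 without replicate 4) and NRF2 targets (16 genes, 0.03 and 0.13). It also held for heat shock (12 genes, 0.14 and 0.25), p53 targets (15, -0.01 and 0.09), inflammation and acute phase (12, 0.44 and 0.27) and aryl hydrocarbon receptor targets (13, -0.10 and 0.03). The last 4 lists were steroid metabolism (15, 0.14 and 0.20), immediate early genes (16, 0.00 and -0.07), extracellular matrix (14, -0.12 and -0.04) and mitochondrial messenger RNAs (13, 0.31 and 0.45). GDF15, a stress hormone, stood at 476, 440, 544 and 701 CPM in TBTCl and 372, 326, 394 and 367 CPM in DMSO, without overlap but with an adjusted p of 0.13 and 0.544 without replicate 4. HMOX1, the heme oxygenase, was 114 ± 20.4 CPM against 83.4 ± 9.89 CPM and passed only with the block (adjusted p = 0.0223, and 0.0298 without replicate 4). OSGIN1, HSD17B2 and ORM1 also passed only with the block (0.0286, 0.0332 and 0.0474) and not without replicate 4 (0.132, 0.136 and 0.22). CYP1A1, the standard readout of the dioxin receptor, was 8.75 ± 7.13 CPM in TBTCl (10.7 ± 7.26 CPM without replicate 4) and 8.37 ± 6.54 CPM in DMSO.

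Of 20 cell cycle genes none passed, and the median log2 change was -0.11 with all libraries and -0.17 without replicate 4. Without replicate 4 all 20 had negative changes, the lowest of them MCM6 at -0.31, and none had an adjusted p under 0.988. Of 12 tested genes of the imprinted network named in the title of the series, none passed (median -0.08, and -0.05 without replicate 4). PLAGL1, the transcription factor at its centre, was 1.54 ± 0.335 CPM in TBTCl and 1.47 ± 0.268 CPM in DMSO (adjusted p = 0.907, and 0.992 without replicate 4). IGF2 spread from 1160 to 4820 CPM in TBTCl and from 1920 to 6220 CPM in DMSO, and H19 and CDKN1C were too low to be tested.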

How the data were processed

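Messenger RNA was selected by its poly(A) tail and sequenced as paired reads from directional libraries, per the labels. Values were deposited by the authors as whole read counts per gene. The submitters' processing notes name fastp, STAR, HTSeq, DESeq2 and GRCh38; their versions, the annotation release and the treatment of strand were not given in the sources used here. Levels are CPM, computed by dividing each deposited count by its TMM-scaled library size. The table held 63140 gene identifiers, and the last was left out because its line was not closed. Symbols were found for 62541 identifiers, and 58126 were in GENCODE 29, which gave gene types, coordinates and the length of each gene's principal transcript.

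Genes were kept by filterByExpr (minimum count 10), and the 18849 kept held 99.96% of counts. All 28 libraries entered 1 edgeR 4.0.16 fit (R 4.3.3, quasi-likelihood, TMM, 7 group means, 21 residual degrees of freedom), with Benjamini-Hochberg adjustment over all tested genes, and an adjusted p under 0.05 was a call. The SE is the log2 change divided by the square root of F. The fit was repeated without TBTCl replicate 4. DESeq2 1.42.0 and limma 3.58.1 were alternatives, and the edgeR script was tested on simulated data. Total counts ran from 28.9 M to 66 M. Libraries of a group differed by more than counting error (chi-square per gene 33.3 to 334), so none was a copy.

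Whether equal replicate numbers pair TBTCl and DMSO libraries was checked from deviations from group means. The labels describe 4 independent experiments but do not say what the number marks. The correlations of equal numbers were 0.249, 0.449, 0.528 and 0.272, and each TBTCl library correlated best with the DMSO library of its number. For TBTCl replicate 1 the correlation with DMSO replicate 4 was 0.17, not far below its 0.249. Values with the number as a block are therefore given as an alternative, where they change a call. Pairing in the other groups, which the block also covered, was not checked.

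Members and the 28 gene lists were chosen with earlier results of these data known. Genes were named by a rule: the 10 largest changes in each direction among called genes of at least 5 CPM with no overlap between groups, with all libraries and without replicate 4 (where fewer than 10, also called genes of at least 1 CPM whatever their overlap), up to 4 called members of each list, a fixed set of receptor, lipid and stress genes, and the 8 genes highest and lowest in replicate 4. Called genes outside the rule, and genes called only with the block, were named after their values were seen. Results for some genes that the rule or the lists hold are not reported here.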

Additional observations from a re-analysis of the deposited data

Results flagged for a closer look

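Among 106 groups of 4 libraries, TBTCl and DMSO for each gene checked, 6 held a library far from the other 3, and chance flags about 1 in 20 groups. TBTCl replicate 4 was the one in 3 of them. It had 8480 CPM of APOA2 where the other TBTCl libraries had 3350 to 3810, 11.5 CPM of GAST where they had 1.28 to 2.27, and 143 CPM of MT2A where they had 20 to 35.5. TBTCl replicate 2 had 85.6 CPM of TTC39C, and the others had 50.2 to 54.5. DMSO replicate 1 was high for both of the remaining transcripts, which fell under TBTCl, with 3.75 CPM of ENSG00000251143 (others 2.67 to 2.82) and 0.762 CPM of ENSG00000223901 (others 0.538 to 0.565).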

How the results depend on the processing

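All 27 genes called with all libraries kept their sign under each alternative in which they were tested, but their number did not hold. Against 27 called (20 up, 7 down), the fit without TBTCl replicate 4 gave 9 (9 and 0). The replicate block gave 179 (102 and 77), and 84 (47 and 37) without replicate 4. DESeq2 gave 252 (145 and 107), limma voom with sample weights 48 (37 and 11), library size alone 9 (8 and 1), no filter 111 (59 and 52), and DMSO with water as the control 75 (68 and 7). A fit of the 8 libraries alone gave 1 (1 and 0), with or without replicate 4. Leaving out 1 TBTCl or DMSO library gave 5 to 160 genes, 5 to 91 up and 0 to 69 down, the highest without TBTCl replicate 2. Scaling within length classes, chosen after seeing the data, gave 22 (17 and 5), and 238 (112 and 126) with the replicate block. Upper-quartile factors gave 22 and a minimum count of 50 gave 25. The causes of these shifts were not tested. At 31.4 M to 66 M counts, depth limits ABCG1, which was near the level of 3 counts in DMSO.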

Other observations

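Genes outside the lists also rose in both fits with the replicate block, though not in the fit without it. The 2 blocked fits, with and without TBTCl replicate 4, shared 70 called genes. The 5 examples below were picked, after their values were seen, from the 10 risen genes of at least 5 CPM with the smallest p in the blocked fit that passed in both. KNG1, the kininogen that liver secretes for clotting and kinin release, stood at 26.7, 35.7, 22.5 and 16.8 CPM in TBTCl and 6.91, 11.4, 9.83 and 2.95 CPM in DMSO (adjusted p = 0.00636 with the block, 0.0155 with the block and without replicate 4, 0.068 without the block). Replicate 4 was the lowest in both groups, and the groups did not overlap. ACSL3, an acyl-CoA synthetase of the endoplasmic reticulum and lipid droplets, stood at 648, 590, 876 and 1100 CPM in TBTCl and 429, 332, 436 and 586 CPM in DMSO (adjusted p = 0.00151, 0.00369 and 0.14). MPC1, a subunit of the mitochondrial pyruvate carrier, was 141 ± 29.4 CPM in TBTCl and 78.4 ± 15.5 CPM in DMSO (0.0104, 0.0425 and 0.0625). PRKAR1A, a regulatory subunit of protein kinase A, was 268 ± 36.1 and 181 ± 20.2 CPM (0.00264, 0.0055 and 0.0512). TMEM135, a protein tied to peroxisomes and lipid handling, stood at 80.1, 91.3, 124 and 105 CPM in TBTCl and 63.7, 68.8, 68.7 and 75.5 CPM in DMSO (0.00485, 0.00934 and 0.082).

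Antisense transcripts were 9.01% of the 18849 genes tested, and with the block they were 47 of the 77 genes that were lower and 1 of the 102 that were higher. Without replicate 4 they were 9.14% of 19175 genes, 26 of the 37 lower and 0 of the 47 higher. EML4-AS1 stood at 1.99, 3.51, 3.01 and 1.08 CPM in TBTCl and 6.31, 6.93, 6.57 and 4.87 CPM in DMSO. Its mean in water was 3.78 CPM, between the TBTCl mean of 2.40 CPM and the DMSO mean of 6.17 CPM. As with the transcripts above, how the counting treated strand is not known.

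Single genes in TBTCl replicate 4 are given as a description. TBTCl replicate 4 was far below TBTCl replicates 1 to 3 in genes that included PKD1P4, PTP4A1, GAL3ST2, PKD1P3, TCAF1P1, BSN and MT-ND4L. PTP4A1, a phosphatase, was at 1.25 CPM there and at 17.7 to 21.7 CPM in the others. Replicate 4 was far above the others in RNU4-2, CA9, PNCK, IGFBP3, TFF1, WDR54, ANGPTL4 and NDUFA4L2. These 8 have transcripts of 141 to 2262 bases, all shorter than the median of 2520 bases, while BSN, PKD1P3, PKD1P4 and PTP4A1 among the low genes have 15955, 6830, 6405 and 4711 bases and TCAF1P1, GAL3ST2 and MT-ND4L have 2233, 1370 and 297. ANGPTL4 was at 20.2 CPM there and at 1.21 to 5.50 CPM in replicates 1 to 3, and NDUFA4L2, a hypoxia-inducible mitochondrial gene, at 5.43 and 0.236 to 1.44 CPM. DMSO replicate 4 was also the highest of its group for both, with 5.32 and 3.49 CPM.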
